A study of Mus musculus with 4 samples.

Results

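Oligodendrocyte progenitor marker genes were followed from early-onset low-grade to late-onset high-grade mouse gliomas. The 10 genes were Rlbp1, C1ql1, Cacng4, Gpr17, Neu4, Lhfpl3, Matn4, Tmem100, Sulf2 and Chst11, taken by gene symbol from the 19937 genes measured on the arrays. All 10 were measured, each by 1 probe set that carried no other gene's symbol. Every tumour arose in a C57/Bl6 mouse that received, at embryonic day 14, a retrovirus carrying PDGF-B together with EGFP, and tumour cells were sorted by flow cytometry for EGFP after dissociation. The early-onset low-grade group held 2 samples, each a pool of cells from 2 tumours (pool 1 and pool 2). The late-onset high-grade group held 2 samples, each from 1 tumour (tumour 1 and tumour 2). All 4 samples therefore carried the PDGF-B/EGFP virus, and no normal brain or unsorted tissue was among them. Pooling went with the group, so the 2 cannot be told apart. A pool averages 2 tumours, so gaps between the pools and gaps between the tumours are not like for like. The ages at onset and the promoter that drove the transgene are not given in the sources used here.

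Oligodendrocyte progenitor cells are the dividing glial cells that PDGF recruits and that mature into myelinating oligodendrocytes. They carry the PDGF receptor gene Pdgfra, the proteoglycan gene Cspg4 and the transcription factor genes Olig1, Olig2 and Sox10, and gliomas driven by PDGF-B are known to share much of this profile. The genes described here mark progenitors too but act in unlike ways, as secreted and matrix proteins, membrane proteins, a retinoid carrier, and enzymes that edit sugar chains. Some are also known outside the lineage, Tmem100 in blood vessel endothelium and Rlbp1 in the Müller glia of the retina.

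The levels of the defining progenitor markers were read first. Olig2 stood at 12.09 and 12.12 in pools 1 and 2 and at 11.93 and 11.89 in tumours 1 and 2, as log2 values (1 unit is a doubling). Sox10 stood at 11.51, 11.50, 11.52 and 11.49 in the same order, and the median of all genes lay between 7.31 and 7.51 on the 4 arrays. Pdgfra fell by 0.45 (SE 0.10, adjusted p 0.041), a call that was lost without pool 1 (-0.49), pool 2 (-0.40), tumour 1 (-0.47) or tumour 2 (-0.43), after quantile normalization (-0.42) and after subtraction of each array's median (-0.39). Olig1 (-0.34, adjusted p 0.0868), Olig2 (-0.19, adjusted p 0.256), Cspg4 (-0.19, adjusted p 0.506) and Sox10 (0.00, adjusted p 0.997) did not pass.

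Of the 10 progenitor markers, Tmem100, Rlbp1, C1ql1 and Cacng4 fell in late-onset cells and 0 rose. The 4 were 1.58-fold to 2.55-fold lower than in early-onset cells. Neu4, Gpr17, Lhfpl3 and Sulf2 had lower values in both tumours than in both pools without passing the test, Matn4 overlapped between the groups, and Chst11 had the higher values in the tumours. The test was limma's moderated test over all genes with a Benjamini-Hochberg adjusted p of 0.05, with 2 arrays per group. Over all genes 14.7% passed, 8.12% as lower and 6.59% as higher in late-onset cells, against 40% of the 10 markers as lower and 0 as higher. All 10 markers lay above the median level of all genes, so the shares over all genes are not those of equally bright genes. With only the 9968 genes above that level fitted, 2753 passed, 1246 as lower and 1507 as higher. In that fit 6 of the 10 markers passed as lower and 0 as higher. The median log2 difference, late-onset minus early-onset, was -0.66 over the 10 markers and -0.01 over all genes. The groups did not overlap for 9 of the 10 markers, against 58.9% of all genes, and 8 of the 10 were lower in both tumours, against 30.4% of all genes. The 10 genes were chosen with earlier results of these data known, so these shares describe them and are not a test.

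Markers of other cell types differed between the groups at the same time. Of 21 measured microglia and macrophage markers, 20 fell and 0 rose (95.2% lower), at a median of -3.77, and their linear levels summed to 42014 to 49195 in the pools against 2504 to 3882 in the tumours. Ly86, with the largest difference of this list, stood at 12.22 and 11.70 in the pools, near the level of Olig2 there. It stood at 7.17 and 7.36 in the tumours. Tmem119, a microglial gene, was the marker that did not pass (-1.13, adjusted p 0.0688). Of 14 astrocyte markers, 8 fell and 0 rose (57.1% lower), at a median of -1.10, with sums of 18509 and 20609 in the pools and 11647 and 12591 in the tumours. Of 14 neuron markers, 6 fell and 1 rose (42.9% and 7.14%), at a median of -0.73, with the synaptic gene Snap25 at -1.85 (adjusted p 0.00899) and the tubulin gene Tubb3 at 1.86 (adjusted p 0.0152). Fewer markers of both lists passed without either pool, and most of the neuron calls as lower were lost there. Without pool 2 the astrocyte calls were not all in the lower direction. The part of these cells in the values of the progenitor markers was not tested. In bulk RNA from sorted cells, fewer cells of a type and less RNA per cell cannot be told apart.

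**Figure D1:**
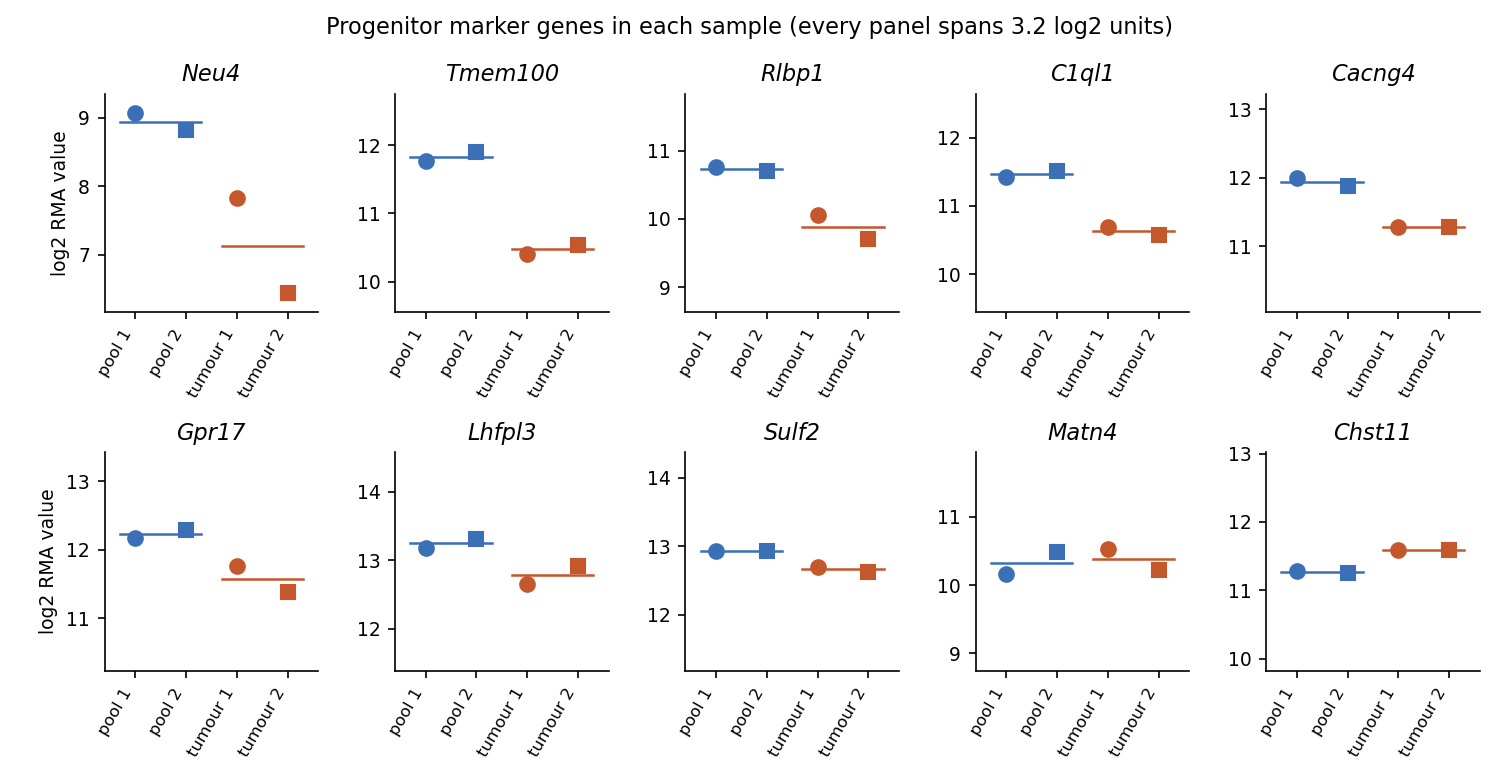
The log2 value of each progenitor marker in pool 1 and pool 2 (blue, early-onset) and tumour 1 and tumour 2 (orange, late-onset), with a line at each group's mean, in panels that all span 3.2 log2 units. Both tumours lie below both pools in 8 panels, Matn4 overlaps, and Chst11 lies higher in both tumours.

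Among the secreted and matrix proteins, C1ql1 fell while Matn4 did not pass. C1ql1 encodes a secreted protein with a C1q domain that binds the adhesion receptor encoded by Adgrb3. Its log2 value was 11.42 in pool 1, 11.52 in pool 2, 10.69 in tumour 1 and 10.57 in tumour 2. Both tumours lay clearly below both pools, and the samples of each group lay close together. C1ql1 averaged 11.47 ± 0.07 in early-onset and 10.63 ± 0.08 in late-onset cells (SD, n = 2), and fell 1.79-fold (SE 0.11 on the log2 scale, adjusted p 0.00966). The call was lost without pool 1 (-0.89, adjusted p 0.0552) and without pool 2 (-0.79, adjusted p 0.0725), where the lone pool is assumed to vary like the tumours. It held in the other 14 settings, with adjusted p from 0.00612 to 0.0725 over all 16.

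Other genes of the C1q-like group were read beside it. C1ql3 stood at 10.48 and 10.74 in the pools and at 8.69 and 8.48 in the tumours, and fell by 2.03 (adjusted p 0.00274). C1ql2 fell by 0.99 (adjusted p 0.0136), a call that was lost without pool 1 (-0.87, adjusted p 0.0746) or pool 2 (-1.12, adjusted p 0.0503). C1ql4, dim at 5.92 in both pools, differed by 0.00 (adjusted p 0.991), and the receptor gene Adgrb3 by 0.17 (adjusted p 0.66). Of the 4 ligand genes 3 fell, C1ql1 of the 10 markers among them, and the receptor gene did not pass. Over the listed relatives of all the markers, 6 of 39 measured genes fell and 1 rose. These were 15.4% and 2.56%, against 8.12% and 6.59% of all genes.

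Matn4 encodes a matrilin, an adaptor protein of the extracellular matrix. It stood at 10.16 in pool 1, 10.48 in pool 2, 10.53 in tumour 1 and 10.22 in tumour 2. The groups overlapped, and the samples of each group were farther apart than the group means. The log2 difference was 0.06 (95% interval -0.36 to 0.48, adjusted p 0.859), and its sign was kept in 12 of 16 other settings. It was lower after quantile normalization (-0.02), after cyclic loess (-0.04), without pool 1 (-0.10) and without tumour 1 (-0.10). Among the other matrilin genes, Matn3 rose by 0.50 (adjusted p 0.0377), a call lost without pool 1 (0.51, adjusted p 0.17), pool 2 (0.50, adjusted p 0.19) or tumour 2 (0.42, adjusted p 0.103). Matn1 (-0.29, adjusted p 0.149) and Matn2 (0.70, adjusted p 0.1) did not pass.

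Of the 4 membrane proteins, Tmem100 and Cacng4 fell, whereas Gpr17 and Lhfpl3 did not pass. Tmem100 encodes a small membrane protein that BMP signals induce in endothelium. It stood at 11.76 in pool 1, 11.89 in pool 2, 10.41 in tumour 1 and 10.54 in tumour 2. The gap between the lowest pool and the highest tumour, 1.22, was far wider than the gap within either group, 0.13 and 0.12. Tmem100 averaged 11.83 ± 0.09 in early-onset and 10.47 ± 0.09 in late-onset cells (SD, n = 2), and fell 2.55-fold (SE 0.11 on the log2 scale, adjusted p 0.00372). It was the marker of the 10 whose call held in all 16 other settings, between -1.47 and -1.29 and with adjusted p from 0.00243 to 0.0302. Of 12 endothelial and pericyte markers, 1 fell, Rgs5 (-0.56, adjusted p 0.0325), at a list median of -0.17. That share, 8.33%, was that of all genes, 8.12%, and is no result about these markers. The Rgs5 call was lost without any 1 of the 4 samples (-0.63 to -0.49). Of these markers, 1 lay above the median level of all genes, Cspg4, which also stands among the progenitor markers.

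Cacng4 encodes an auxiliary subunit that regulates AMPA-type glutamate receptors, which progenitors carry at their synapses with neurons. Its log2 value was 11.99 in pool 1, 11.88 in pool 2, 11.28 in tumour 1 and 11.28 in tumour 2. The tumours were almost equal and both lay below the pools. The mean was 11.94 ± 0.08 in early-onset and 11.28 ± 0.01 in late-onset cells (SD, n = 2), so Cacng4 fell 1.58-fold (SE 0.10 on the log2 scale, adjusted p 0.0155). The call was lost without pool 1 (-0.60, adjusted p 0.101) and without pool 2 (-0.71, adjusted p 0.08) and held in the other 14 settings, with adjusted p from 0.00778 to 0.101 over all 16.

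The AMPA receptor genes themselves were given by a list of 10 subunits and auxiliary proteins, of which 2 fell and 1 rose (20% and 10%, against 8.12% and 6.59% of all genes), at a median of -0.50. The subunit gene Gria1 stood at 9.24 and 8.91 in the pools and at 6.71 and 6.48 in the tumours and fell by 2.48 (adjusted p 0.00229). The subunit gene Gria2 fell by 0.70 (adjusted p 0.0232), a call lost without pool 1 (-0.79), pool 2 (-0.62) or tumour 1 (-0.61). Cnih3, which encodes a cornichon auxiliary protein and lies on chromosome 1, rose by 0.77 (adjusted p 0.0122). Cnih3 lost its call without either pool (adjusted p 0.0752 and 0.0836) and with each array's chromosome median subtracted, an alternative chosen after seeing the data (0.59, adjusted p 0.13). Of the 6 measured genes of the Cacng family beside Cacng4, 0 passed. Cacng5 had the largest difference among them, 8.37 and 7.74 in the pools against 9.23 and 10.66 in the tumours (1.89, adjusted p 0.0625), in the direction opposite to Cacng4.

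Gpr17 encodes a receptor related to the P2Y and cysteinyl leukotriene receptors that is raised in committed progenitors and lowered again as they mature. It stood at 12.17 in pool 1, 12.28 in pool 2, 11.76 in tumour 1 and 11.38 in tumour 2. Both tumours were lower than both pools, and tumour 2 was lower than tumour 1. The log2 difference was -0.66 (SE 0.16, 95% interval -1.05 to -0.26), close to that of Cacng4, but the adjusted p was 0.051. It passed in 9 of 16 other settings and did not in 7, with adjusted p from 0.0223 without tumour 1 (-0.85) to 0.235 without pool 2 (-0.60), and stood at -0.46 without tumour 2. Of the 7 related P2Y and leukotriene receptor genes, P2ry13 (-3.53, adjusted p 0.00329), P2ry12 (-1.67, adjusted p 0.00229) and Cysltr1 (-0.90, adjusted p 0.0164) fell. P2ry12 and P2ry13 also stand among the microglia and macrophage markers, and Cysltr1 lost its call without pool 1 (-0.73, adjusted p 0.0711). The other 4 did not pass.

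Lhfpl3 encodes a tetraspan membrane protein of progenitors whose function is little known. Its log2 value was 13.18 in pool 1, 13.32 in pool 2, 12.65 in tumour 1 and 12.91 in tumour 2. The groups did not overlap, though the tumours lay farther apart than the pools. The log2 difference was -0.47 (SE 0.13, 95% interval -0.80 to -0.14, adjusted p 0.0748), and it passed in 3 of 16 other settings. Among its 5 relatives, 0 passed, with Lhfpl4 at -0.48 (adjusted p 0.062) and Lhfp at 0.52 (adjusted p 0.13).

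Rlbp1, which encodes the cellular retinaldehyde-binding protein, fell in late-onset cells. It stood at 10.76 in pool 1, 10.71 in pool 2, 10.06 in tumour 1 and 9.70 in tumour 2. Both tumours were lower than both pools, with a wider gap between the single tumours than between the pools of 2 tumours each. Rlbp1 averaged 10.74 ± 0.04 in early-onset and 9.88 ± 0.25 in late-onset cells (SD, n = 2), and fell 1.81-fold (SE 0.14 on the log2 scale, adjusted p 0.0208). The call was lost without pool 1 (-0.83, adjusted p 0.111) and without pool 2 (-0.88, adjusted p 0.109) and held in the other 14 settings, with adjusted p from 0.0132 to 0.111 over all 16. Of 4 genes of the same lipid-carrier family (Ttpa, Clvs1, Clvs2 and Sec14l2), 0 passed, and their differences lay between -0.41 and -0.03.

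**Figure D2:**
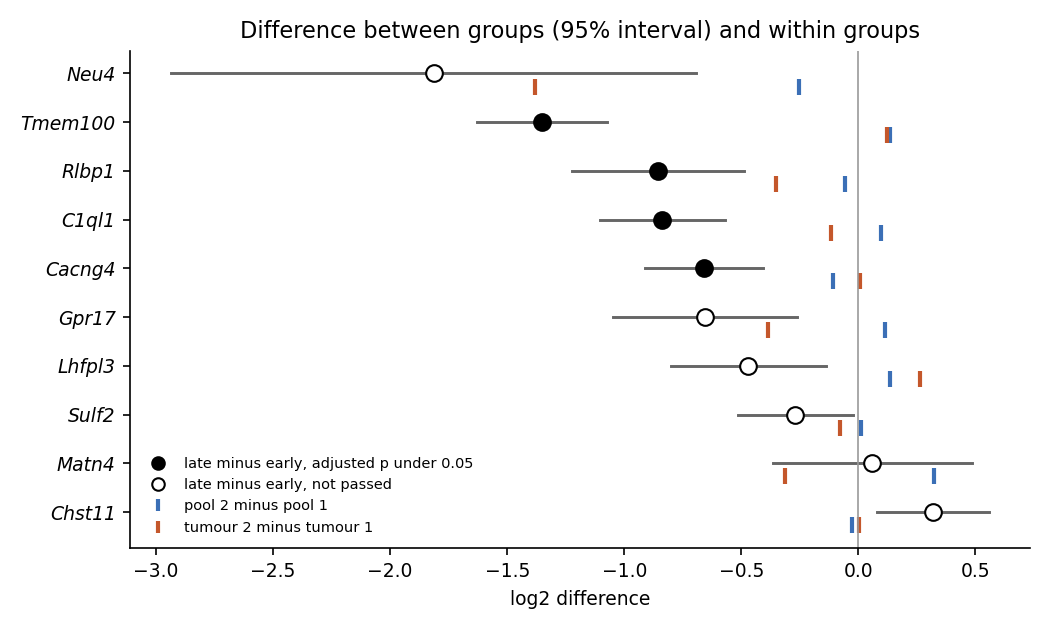
The log2 difference, late-onset minus early-onset, of each progenitor marker with its 95% interval (horizontal axis), filled where the adjusted p was under 0.05, above the differences between the 2 pools (blue) and between the 2 tumours (orange). The filled points are Tmem100, Rlbp1, C1ql1 and Cacng4, and Neu4 shows the widest interval and the widest gap between tumours, -1.38.

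The 3 enzymes that edit sugar chains did not pass, and they did not share a direction. Neu4 encodes a sialidase that removes sialic acid, including polysialic acid, from glycoproteins and glycolipids. It stood at 9.07 in pool 1, 8.82 in pool 2, 7.82 in tumour 1 and 6.44 in tumour 2. Both tumours lay below both pools, and the tumours differed from each other by more than any other marker's samples of 1 group did. Its mean was 8.94 ± 0.18 in the pools and 7.13 ± 0.98 in the tumours (SD, n = 2). This log2 difference of -1.81 (SE 0.44, 95% interval -2.94 to -0.69) was the lowest of the 10, with an adjusted p of 0.0544. It passed in 8 of 16 other settings, with adjusted p from 0.00403 to 0.208, and depended on the tumour: it was -2.50 without tumour 1 and -1.12 without tumour 2.

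Neu4 is the marker of the 10 that lies on chromosome 1. On that chromosome the median gene stood 0.40 lower in tumour 2 than in tumour 1 (-0.40 over 578 genes above the median level). On the other autosomes this median difference lay between 0.02 and 0.06. The median late-onset minus early-onset difference on chromosome 1 was 0.24, against -0.004 to 0.10 on the other chromosomes, and the pools differed by -0.01. C1ql2, Adgrb3, Sulf1, Tmem163 and Rgs5, like Cnih3 and Chpf, lie on chromosome 1 too. With each array's chromosome median subtracted, Neu4 stood at -2.0 and passed (adjusted p 0.0135). The other sialidase genes Neu1 (-0.09, adjusted p 0.63), Neu2 (-0.12, adjusted p 0.467) and Neu3 (0.10, adjusted p 0.61) differed little, with Neu2 also on chromosome 1.

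Sulf2 encodes an extracellular sulfatase that removes sulfate groups from heparan sulfate and thereby changes how growth factors bind it. Its log2 value was 12.92 in pool 1, 12.93 in pool 2, 12.70 in tumour 1 and 12.62 in tumour 2. The tumours were lower than the pools by little, and the samples of each group lay close together. The log2 difference was -0.27 (SE 0.10, 95% interval -0.51 to -0.02, adjusted p 0.138) and passed in 0 of 16 other settings, with adjusted p from 0.0506 to 0.416; its unadjusted limma p was 0.0373. Its paralogue Sulf1 stood at 8.31 and 8.19 in the pools and at 6.99 and 7.95 in the tumours (-0.78, adjusted p 0.173).

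Chst11 encodes a sulfotransferase that adds sulfate to chondroitin. It stood at 11.28 in pool 1, 11.26 in pool 2, 11.59 in tumour 1 and 11.59 in tumour 2. Both tumours were higher than both pools, with little spread inside either group. The log2 difference was 0.32 (SE 0.09, 95% interval 0.08 to 0.56, adjusted p 0.0867), 1.25-fold higher, and it passed in 1 of 16 other settings, with a variance trend (adjusted p 0.045). Of the 6 other chondroitin sulfotransferase genes measured, Chst7 fell by 1.47 (adjusted p 0.00608) and the other 5 did not pass, between -0.17 and 0.34.

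The wider heparan and chondroitin sulfate synthesis list held 26 measured genes, of which 5 rose and 0 fell (19.2% higher, against 6.59% of all genes), at a median of 0.07. Ndst3, a heparan sulfate deacetylase and sulfotransferase gene, rose by 1.78 (adjusted p 0.0042), and the epimerase gene Glce rose by 1.27 (adjusted p 0.018). The sulfotransferase gene Hs2st1 rose by 0.60 (adjusted p 0.0256), and its call was lost without either pool (0.65 and 0.55) or tumour 2 (0.52). The chondroitin polymerizing factor gene Chpf, which lies on chromosome 1, rose by 0.53 (adjusted p 0.0287) and lost its call without either pool (0.51 and 0.55), without tumour 1 (0.47) and with chromosome medians subtracted (0.35, adjusted p 0.177). The list's count was 2 without either pool and 3 with chromosome medians subtracted.

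The markers' promoters were then read for letters that factors of the lineage are known to bind. Windows from 250 bases before to 50 bases after a transcription start were taken from RefSeq (build GRCm38.p6), which gave 8 windows for 6 of the 10 genes, Rlbp1, Neu4, Lhfpl3, Matn4, Sulf2 and Chst11. The motifs searched on both strands were ACAAAG and AACAAT, letters of SOX factors, and CAGCTG and CANNTG, letters of basic helix-loop-helix factors such as OLIG2, where each CAGCTG is also counted as a CANNTG. The windows of Rlbp1 (chr7:79386978-79387277, minus strand), Neu4 (chr1:94020243-94020542, plus strand) and Lhfpl3 (chr5:22745804-22746103, plus strand), with lower values in both tumours, are shown beside that of Chst11 (chr10:82985247-82985546, plus strand), with higher ones. Each reads 5′ to 3′ along its gene, with the motifs in capitals.
Rlbp1: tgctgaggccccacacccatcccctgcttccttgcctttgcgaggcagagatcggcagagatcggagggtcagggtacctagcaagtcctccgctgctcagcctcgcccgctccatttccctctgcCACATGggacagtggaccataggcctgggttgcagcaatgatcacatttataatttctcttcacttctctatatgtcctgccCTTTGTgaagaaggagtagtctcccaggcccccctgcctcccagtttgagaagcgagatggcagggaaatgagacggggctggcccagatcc
Neu4: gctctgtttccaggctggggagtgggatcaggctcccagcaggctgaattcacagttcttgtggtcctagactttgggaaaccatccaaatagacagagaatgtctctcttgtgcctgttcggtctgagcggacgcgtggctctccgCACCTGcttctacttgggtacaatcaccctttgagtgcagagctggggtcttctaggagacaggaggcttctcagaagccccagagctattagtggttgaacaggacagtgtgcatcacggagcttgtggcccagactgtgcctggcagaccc
Lhfpl3: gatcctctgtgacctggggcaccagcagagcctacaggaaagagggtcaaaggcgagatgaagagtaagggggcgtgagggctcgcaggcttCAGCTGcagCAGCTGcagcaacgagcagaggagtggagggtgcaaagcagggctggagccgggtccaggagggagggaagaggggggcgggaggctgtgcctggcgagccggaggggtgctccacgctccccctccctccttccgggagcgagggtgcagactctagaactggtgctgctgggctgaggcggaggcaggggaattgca
Chst11: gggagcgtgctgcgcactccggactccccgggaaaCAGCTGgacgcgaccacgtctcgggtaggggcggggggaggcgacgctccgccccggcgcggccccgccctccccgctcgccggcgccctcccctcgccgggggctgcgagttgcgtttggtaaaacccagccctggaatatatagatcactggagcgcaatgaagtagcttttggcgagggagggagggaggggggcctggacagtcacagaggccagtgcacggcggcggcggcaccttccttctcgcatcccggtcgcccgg
The capitals show 1 ACAAAG in the Rlbp1 window, read on the opposite strand, and 2 neighbouring CAGCTG in the Lhfpl3 window. Neu4 held 1 CANNTG that was not CAGCTG, and Chst11 held 1 CAGCTG.

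The motifs were found both in windows of genes with lower values and in that of Chst11. CAGCTG was found in windows of 4 of the 6 genes (Lhfpl3, Matn4, Sulf2 and Chst11), or 4 of 8 windows, against 16.3% of all 32851 windows. CANNTG was found in all 8 windows against 72.3% of all windows, ACAAAG in 1 of 8 against 18.7%, and AACAAT in 0 of 8 against 10.7%. The Chst11 window, with 71% G and C, lay above the upper quartile of all windows, 61.7%, as did those of Lhfpl3 (66%) and 1 each of Matn4 (64%) and Sulf2 (62.3%). A match describes these letters and shows no binding.

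The other progenitor markers, a list that leaves out the 10, lay lower by less. Of 26 measured, 5 fell and 0 rose (19.2% lower, against 8.12% of all genes), at a median of -0.35. All 26 lay above the median level of all genes. With only genes above that level fitted, 8 of the 26 passed as lower, beside 1246 of 9968 genes. Emid1, an extracellular matrix gene, fell by 1.07 (adjusted p 0.0098), the transcription factor gene Sox5 by 0.99 (adjusted p 0.0089), the neuroglycan gene Cspg5 by 0.74 (adjusted p 0.0177) and the endocytosis gene Epn2 by 0.62 (adjusted p 0.0319), with Pdgfra the fifth. The count was 1 without pool 1, where Sox5 passed, 0 without pool 2, 3 without tumour 2, and 8 or 9 with a variance trend and after cyclic loess. Of the 26 genes, 21 stood lower in tumour 2 than in tumour 1. Among the 10 markers, 6 stood lower in tumour 2. The share of all genes lower in tumour 2 was not counted, so these counts are no result about the markers.

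Genes of the later steps of the lineage moved both ways. Of 16 markers of newly formed oligodendrocytes, 4 fell and 0 rose (25% lower, against 8.12% of all genes), at a median of -0.02. The count was 2 without either tumour, and Bmp4, named after its value was seen, passed as higher without pool 2. Tmem163 (-1.65, adjusted p 0.0042), which encodes a zinc transporter, the receptor gene Gpr37 (-1.36, adjusted p 0.00292), the transcription factor gene Mycl (-0.94, adjusted p 0.0233) and the calcium channel gene Itpr2 (-0.52, adjusted p 0.0488) were the 4. Itpr2 lost its call without any 1 of the 4 samples (-0.62 to -0.41), and Mycl without pool 2 (-0.71) or either tumour.

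Of 16 markers of myelinating oligodendrocytes, 4 fell and 3 rose (25% and 18.8%, against 8.12% and 6.59% of all genes), at a median of -0.29. The myelin genes Mobp (-2.62, adjusted p 0.0269) and Mbp (-1.45, adjusted p 0.0164) fell, whereas Cldn11, which encodes the tight junction protein of myelin, rose by 2.07 (adjusted p 0.0112) and Myrf, the transcription factor gene that starts myelination, rose by 1.39 (adjusted p 0.0203). Mobp stood at 9.98 and 10.17 in the pools, 6.68 in tumour 1 and 8.23 in tumour 2. Mobp and Mbp lost their calls without either pool, Mobp also with robust eBayes (adjusted p 0.0504), and Myrf without tumour 1 (1.33, adjusted p 0.0541). Fewer genes of the list passed without either pool, mostly as higher, and more passed without tumour 2, mostly as lower. Of these 16 genes, 12 stood higher in tumour 2 than in tumour 1, with no share of all genes counted beside them. Among genes above the median level, the median gene also stood higher in tumour 2 on every chromosome but chromosome 1 (0.02 to 0.06).

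**Figure D3:**
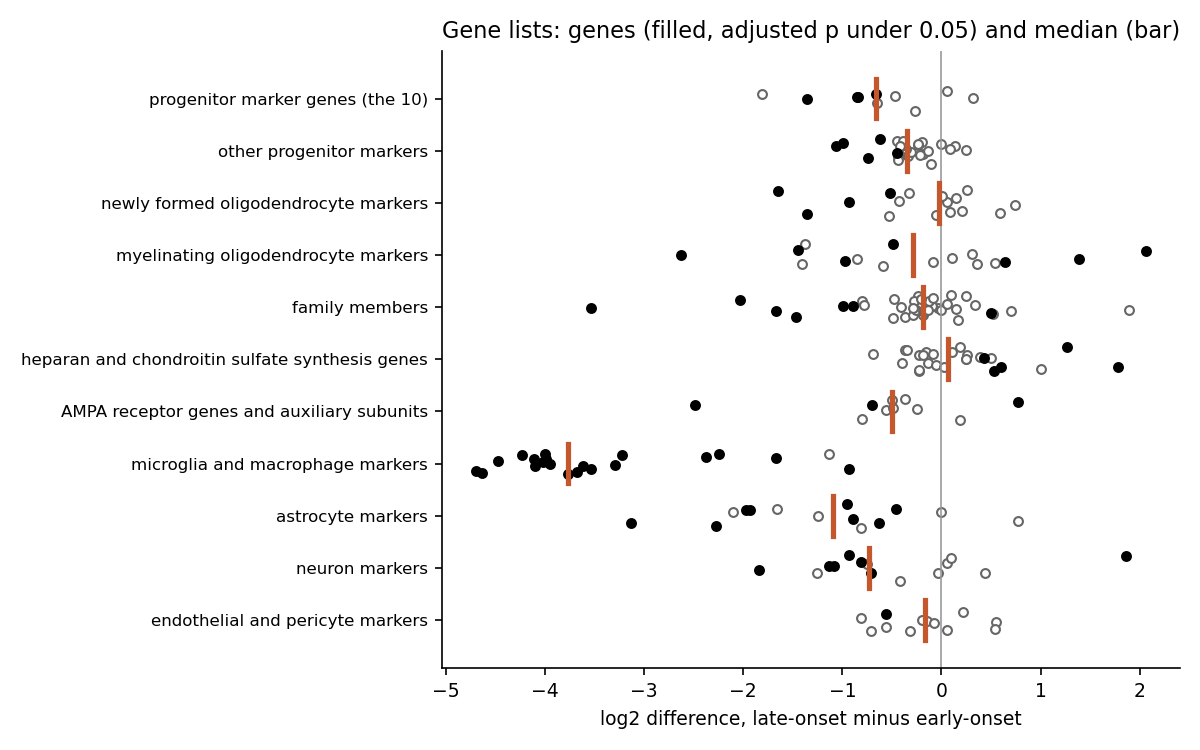
The log2 difference, late-onset minus early-onset, of every measured gene of each list (points, filled where the adjusted p was under 0.05), with the list's median as an orange bar. The 10 progenitor markers have a median of -0.66 and the other progenitor markers -0.35, beside -0.02 for newly formed oligodendrocyte markers and -3.77 for microglia and macrophage markers.

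The genes most like the mean of the 10 markers over the 4 arrays were Pfkm, Abca8b, Clip4, Prex1 and Clasp2. Likeness was the Euclidean distance between log2 values centred on each gene's mean, among genes above the median level, and lay between 0.01 and 0.04 for these 5, against a median of 0.40 for the 10 markers themselves. Their log2 differences lay between -0.68 and -0.63. With 4 arrays and 19937 genes, such closeness says nothing of shared function or control.

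**Figure D4:**
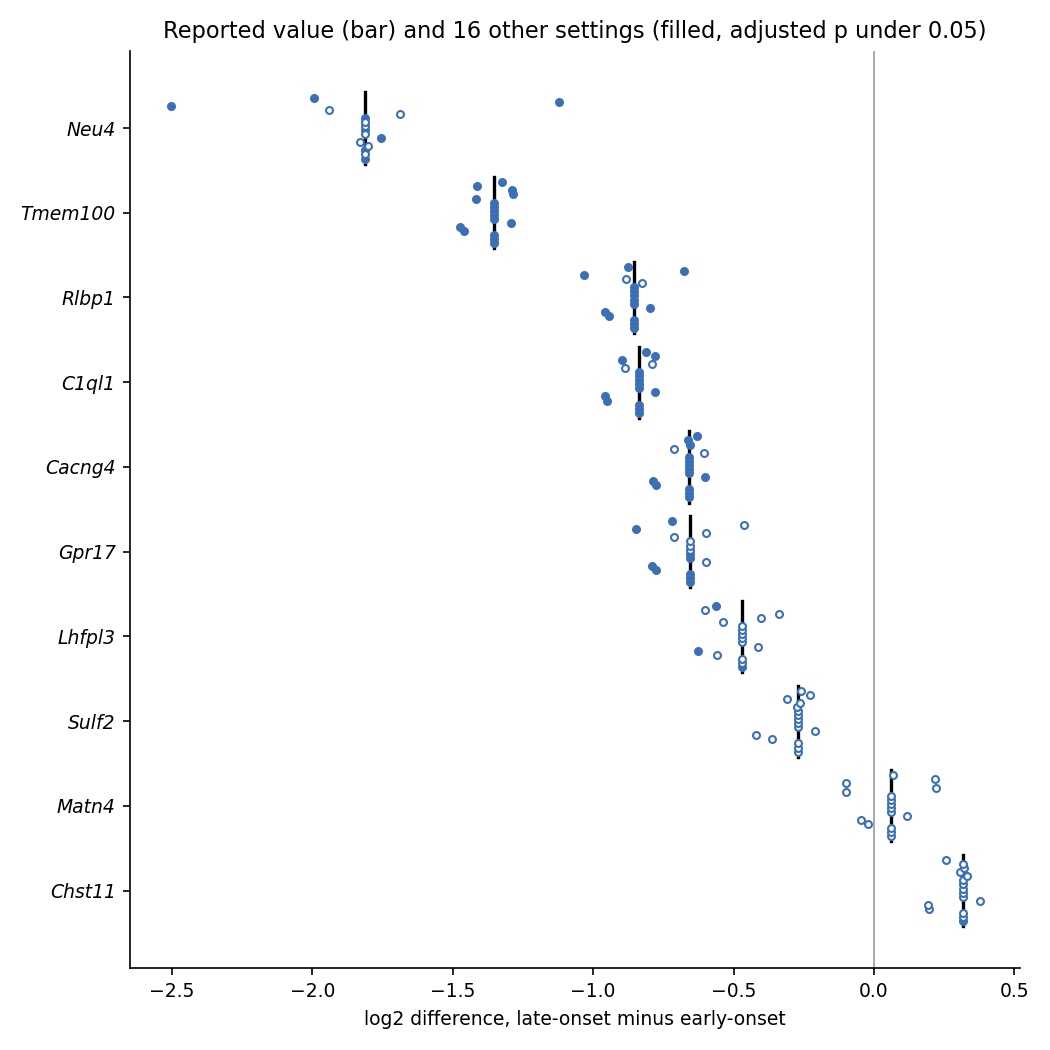
The log2 difference, late-onset minus early-onset, of each progenitor marker as reported (black bar) and under 16 other settings (points, filled where the adjusted p was under 0.05). Points for Tmem100 are filled throughout, those of Neu4 spread from -2.50 to -1.12, and those of Matn4 lie on both sides of 0.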

How the data were processed

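Sorted EGFP-positive glioma cells were profiled on 4 Affymetrix arrays, 2 per group, and the labels call the samples biological replicates. The authors deposited 1 log2 value per probe set and array, and the submitters' processing notes name RMA and affy version 3.4.2 without settings. No source used here names a genome build. RMA corrects background and brings arrays to a common scale, which hides shifts common to most genes and shrinks the differences of dim genes. Values of the 34760 probe sets ran from 2.17 to 14.8, with array medians of 6.63 to 6.71. Pearson's r across probe sets was 0.992 between pools, 0.988 between tumours and 0.972 to 0.974 across groups.

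GEO's platform annotation gave 21640 probe sets a single symbol, 1321 several and 11799 none. Of the first, 21553 matched the GRCm38.p6 RefSeq table by Entrez identifier. Each gene kept its probe set with the highest mean, which left 19937 genes. Fits with limma 3.58.1 under R 4.3.3 (lmFit, then eBayes with 2 residual and 3.27 prior degrees of freedom) set late-onset against early-onset samples without filtering, with Benjamini-Hochberg adjustment over all genes. The procedure was tested on simulated data. The number of arrays limits the precision.

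The members, gene lists and alternatives were chosen with earlier results of these data known. Named were all 10 markers, Pdgfra, Cspg4, Olig1, Olig2 and Sox10, measured relatives from the family list, up to 4 called genes of each list by absolute log2 difference (or the 2 with the highest absolute moderated t if 0 were called), and the 5 genes most alike. Tmem119 was named after its value was seen. List genes not measured by a single-symbol probe set were left out. Alternatives covered the variance model, array weights, scaling, filters on dim genes, the choice of probe set, thresholds, the replicate number as a block and each sample left out. With chromosome medians subtracted, chromosomes came from the RefSeq table.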

Additional observations from a re-analysis of the deposited data

How the results depend on the processing

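With 2 arrays per group the calls depend on each sample. Without 1 pool the spread within groups came from the 2 tumours alone, and without 1 tumour from the 2 pools alone. The differences themselves did not all move most without a pool. Rlbp1 stood at -0.83 and -0.88 without pool 1 or pool 2, and at -1.03 and -0.68 without tumour 1 or tumour 2. Cacng4 moved more without a pool (-0.60 and -0.71) than without a tumour (-0.65 and -0.66). Of the 10 markers, 4 passed as reported and 1 to 6 with a sample left out; among all genes 2931 passed as reported and 850 to 2577 with a sample left out; among the genes of all other lists together 65 passed as reported and 36 to 67. With a variance trend 8 of the 10 markers passed, 7 lower and 1 higher, and with chromosome medians subtracted, chosen after seeing the data, 7 passed. At an adjusted p of 0.01 there were 2 markers and 824 genes, and at 0.1 there were 8 markers and 4539 genes. The cause of these shifts was not tested, except that a stricter or looser threshold passes fewer or more genes by construction.

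The groups share replicate numbers, but the labels tie the numbers to no litter, batch or day, and the deviations of same-numbered samples correlated at -0.04 over 19937 genes. With the replicate number as a block, 1833 genes, 5 of the 10 markers and 58 genes of the other lists passed. In that fit 2 of the 26 other progenitor markers passed in place of 5, with Cspg5, Epn2 and Pdgfra lost, 2 of the 26 sulfate synthesis genes in place of 5, and 0 of the 12 endothelial and pericyte markers in place of 1.

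Of the 10 markers, 9 kept their sign in each of 16 settings and Matn4 in 12. No setting moved the median of all genes by over 0.06. For the 76 other named genes, 1101 of 1184 values kept their direction, where called, and their side of the threshold, 70 lost the call and 13 gained it. The mean or the most variable of a gene's probe sets left the 10 markers' differences as they were, since each has 1 probe set.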
